A study of Homo sapiens with 24 samples.

Results

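The comparison described here is PNA2 against PBS at 48 h in U2932 cells, an established human line from a diffuse large B cell lymphoma. It takes 10 of the 24 samples of the series, chosen by their labels: 4 libraries of cells incubated with PNA2 (gPNA2 in the protocol, at 8 mM as the labels give it) and 6 of cells given PBS. Gamma peptide nucleic acids, the class PNA2 belongs to, are synthetic strands whose peptide-like backbone carries nucleic acid bases and pairs with DNA or RNA, and the series describes PNA2 as an inhibitor directed at the MYC gene's DNA. All groups are the same wild-type line and no transgene or deletion is named, so the data speak for 1 cell line only. The 48 h table also holds 4 libraries of cells electroporated with 500 nM siRNA. They enter the filter, the scaling and, with a group term of their own, the fit's estimate of the spread. Their values can spread less: for MYC the SD was 290 in siRNA, 846 in PBS and 835 in PNA2. Those of PBS and PNA2 were taken over both batches. Adjusted p-values that include the siRNA libraries may therefore be too small. The labels do not say whether replicates were separate cultures, so p-values measure the spread between these libraries, which may be technical.

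MYC is a transcription factor that binds DNA with MAX and drives genes for ribosome assembly, nucleotide synthesis and the cell cycle, and it is often overactive in this lymphoma. Cells of this kind also lean on B cell receptor and NF-kB signalling, which keep survival genes such as BCL2L1 switched on. Mitochondria carry a small genome of their own, transcribed as long precursors from both strands by POLRMT and cut into mRNAs, rRNAs and tRNAs, so its transcripts are made apart from those of the nucleus.

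The table lists 61541 genes, of which 14136 reached a value of 10 in at least 4 of the 14 libraries at 48 h and were tested. Library totals, in M (1e6), were 11.121 to 14.461 M in PBS and 14.882 to 16.034 M in PNA2, and each library was scaled for this. Identical values recur within 2 sets of libraries and never between them, so the table was adjusted in 2 batches that the labels do not name: batch A holds PBS replicates 1, 2 and 4 and PNA2 replicates 1 and 2, and batch B holds PBS replicates 3, 6 and 7 and PNA2 replicates 3 and 4. PBS 6 and 7 stand for the pair of columns that share one header. PNA2 replicate 2 stood apart: its log2 difference from its batch controls had an SD of 0.61 over 9593 genes, against 0.29 to 0.31 in the other PNA2 libraries, so results are also given without it. The B lineage genes that define the line were present in every library, among them PAX5 at scaled values of 6667 to 8009 in PBS and 4975 to 8789 in PNA2. MS4A1 read 11888 to 17138 in PBS and 5856 to 14796 in PNA2, and the summed list of 35 B lineage genes 127644 to 134637 and 87749 to 136339. Of 21 T and NK cell markers 7 were below 1 in every library, among them CD3D and NKG7, and 6 had a mean of 10 or more. No myeloid marker of 15 reached a mean of 10, and the summed T and NK list ran from 1138 to 1446 in PBS and from 1167 to 1747 in PNA2. Of 16 stroma and epithelium markers 4 had a mean of 10 or more, and their sum was 205 to 293 in PBS and 234 to 500 in PNA2. Among them, EPCAM read 161 to 239 in PBS and 183 to 222 in PNA2, and COL1A1 at most 18.4 in PBS and 142 in PNA2.

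After 48 h with PNA2, 1147 genes were called higher (8.11% of those tested) and 1137 lower (8.04%), together 16.2%, at an adjusted p under 0.05 in limma. Most changes were small: the median was 0.46 among genes called higher and -0.41 among genes called lower, on the log2(scaled value + 1) scale used throughout. A change of at least 1 was seen in 114 genes called higher and 84 called lower, and one of at least 2 in 7 and 7. In 735 genes (5.2%) all 4 PNA2 libraries lay above all 6 controls, and in 689 (4.87%) all lay below. Without PNA2 replicate 2 the counts were 1244 and 1219, and only 859 of the 1147 and 889 of the 1137 were among them. A fit of the 10 PNA2 and PBS libraries alone called 513 and 497, and without rescaling of the libraries the split was 2014 higher and 167 lower, with the median of all genes shifted by 0.19. Every change below is therefore relative to the typical gene of a library, and in bulk samples fewer cells of a kind and less RNA per cell cannot be told apart.

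**Figure D1:**
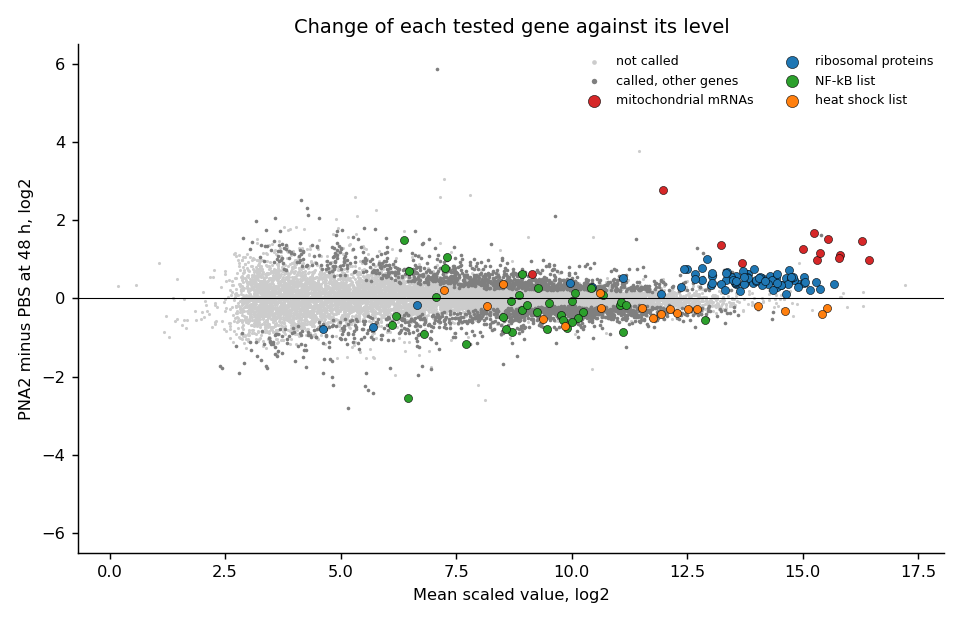
Change of each tested gene (PNA2 minus PBS, log2, vertical) against its mean scaled value (log2, horizontal). Mitochondrial mRNAs and ribosomal protein genes sit above 0 at the high end of expression, and most NF-kB and heat shock genes lie below 0.

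MYC itself was not called. Its scaled values were 7144, 7721, 5348, 6748, 7011 and 6055 in PBS (replicates 1, 2, 3, 4, 6 and 7) and 7198, 7260, 7904 and 8997 in PNA2 (replicates 1 to 4), so the groups overlapped. The difference was 0.24 (SE 0.10, adjusted p = 0.114 in limma), with 0.01 in batch A and 0.47 in batch B. Without PNA2 replicate 2 it was 0.29 and passed (limma, adjusted p = 0.043). None of the 10 MYC network genes was called lower (limma), and MGA, a MAX partner that opposes MYC, was the member that rose, by 0.28.

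Transcripts of the mitochondrial genome moved in one direction. Of 20 tested mitochondrial genes 13 were called higher and none lower: 11 of the 13 mRNAs and both rRNAs. The median change of the mRNAs was 1.17, against -0.00 over all genes tested, with 1.15 in batch A, 1.19 in batch B and 1.32 without PNA2 replicate 2. The 13 mRNAs took 2.22% ± 0.517 (SD, n = 6) of the library total in PBS and 4.85% ± 0.652 (SD, n = 4) in PNA2, a ratio of 2.18 that held in both batches (2.32 and 2.05). The lowest PNA2 library, at 4.30%, was above the highest control, at 2.92% (exact two-sided permutation test over 210 arrangements, p = 0.00476, adjusted over 8 RNA classes 0.0127).

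The mitochondrial mRNAs did not all move by the same amount. MT-ND2, a subunit of respiratory complex I, read 17965 to 33130 in PBS (median 24329) and 79231, 79069, 59749 and 64340 in PNA2. It rose by 1.53 (SE 0.15, limma adjusted p = 4.04e-05). MT-ND1 and MT-ND4, also of complex I, rose by 1.66 and 1.46. The 7 complex I subunits ranged from 0.63 to 1.66 with 6 called, and the 5 called among the 6 subunits of complexes III, IV and V, which were named here after their values were seen, were MT-CO1 (0.97), MT-CO2 (1.11), MT-CO3 (1.03), MT-CYB (0.98) and MT-ATP6 (1.25). In MT-CO3 and MT-CYB, PNA2 replicate 2 fell within the range of the controls, at 44033 and 37423.

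The mRNAs that missed the threshold were MT-ND6, the subunit encoded on the other strand, and MT-ATP8. MT-ND6 read 263 to 667 in PBS and 790, 346, 748 and 895 in PNA2, a difference of 0.63 (limma adjusted p = 0.114). PNA2 replicate 2 was the low one. MT-ATP8 was at 0 in PBS replicate 3 and between 2094 and 4680 in the other controls, so its fitted difference of 2.76 (SE 1.64) rests on that library. The 5 mitochondrial tRNAs tested had means of at most 61.0 and none was called (limma; the smallest adjusted p was 0.0565).

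Both mitochondrial rRNAs rose. MT-RNR2, the large rRNA, read 12855 to 34242 in PBS and 56210, 95081, 49849 and 58361 in PNA2. Its change was 1.63 (SE 0.24, limma adjusted p = 0.000664), with 2.19 in batch A and 1.06 in batch B. MTND2P28, an unprocessed pseudogene of MT-ND2 at chr1:629640-630683 (GRCh38, plus strand), rose by 1.51, and reads from near-identical copies cannot be told apart here. In the 72 h table, a separate set of libraries normalized on its own, the mitochondrial mRNA share was 3.96 to 4.63% in PBS and 6.15 to 8.30% in PNA2, again without overlap.

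**Figure D2:**
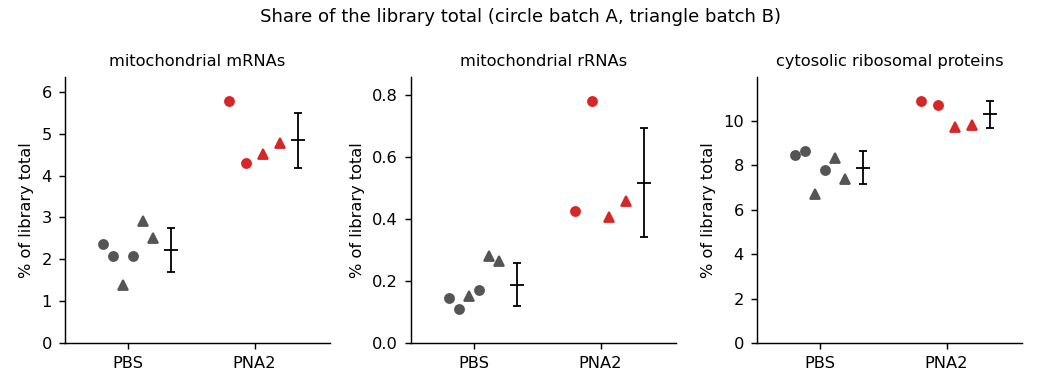
Share of the library total (percent, vertical) taken by mitochondrial mRNAs, mitochondrial rRNAs and cytosolic ribosomal protein genes in each PBS and PNA2 library, with mean and SD. All 4 PNA2 libraries lie above all 6 controls in each panel, and replicate 2 has the highest mitochondrial rRNA share, 0.779%.

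Of 24 nuclear-encoded factors for mitochondrial transcription and RNA handling none was called higher and 3 lower, a count near the 8.04% of all tested genes. The list's median was -0.10, -0.25 in batch A, 0.06 in batch B and -0.00 without PNA2 replicate 2. The 3 were POLRMT, the mitochondrial RNA polymerase, POLG, the catalytic subunit of the mitochondrial DNA polymerase, and POLG2, its accessory subunit. POLRMT read 1471 to 1852 in PBS and 1247, 972, 1256 and 1291 in PNA2. It fell by 0.48 (SE 0.09, limma adjusted p = 0.00216), and by 0.37 without PNA2 replicate 2.

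The nuclear-encoded subunits of the respiratory chain depended on PNA2 replicate 2. Of 37 complex I subunits 2 were called higher, NDUFB11 (0.27) and NDUFB2 (0.29), and without that library 11. Of 38 subunits of complexes II to V 6 were called higher, led by ATP5MC2 and ATP5ME of the ATP synthase at 0.44 and 0.35, and 1 lower, UQCR11 at -0.34. Without replicate 2 the counts were 15 and 0, UQCR11 included among those not called. For NDUFB11 and ATP5ME, 44.9% and 61.6% of the exon bases overlap genes on the other strand, and whether counting used strand is not given in the sources used here. Of 74 mitochondrial ribosomal proteins 2 were called higher and 2 lower.

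Genes for the cytosolic ribosome rose as a block. Of 47 large subunit genes 40 were called higher and 1 lower, with a median of 0.46, and of 31 small subunit genes 26 and 1, with a median of 0.45. The medians were 0.42 and 0.36 in batch A and 0.50 and 0.49 in batch B. Without PNA2 replicate 2 the counts were 45 and 1, and 30 and 0, and in the fit of PNA2 and PBS alone 31 and 0, and 17 and 0. Their share of the total was 7.89% ± 0.737 (SD, n = 6) in PBS and 10.3% ± 0.595 (SD, n = 4) in PNA2, a ratio that was 1.30 within batch A and 1.31 within B (exact permutation test, adjusted p = 0.0127). With mitochondrial transcripts taken out of the total the ratio was 1.35.

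RPL39, a small protein of the exit tunnel of the large subunit, is at chrX:119786504-119791643 on the minus strand (GRCh38, GENCODE 29). It read 6221, 5534, 4887, 4967, 5092 and 4666 in PBS and 10917, 11635, 9349 and 9857 in PNA2. All PNA2 values lay well above the controls, a rise of 1.00 (SE 0.08, limma adjusted p = 5.17e-06) with 1.02 in batch A and 0.98 in batch B. RPS21 read 4336 to 6113 in PBS and 10275, 9058, 8503 and 8879 in PNA2, a rise of 0.78. RPS27 rose by 0.75 and RPL38 by 0.63. The 2 members called lower, RPS10 (-0.79) and RPL36A (-0.72), were at means far below those of the others in this table: RPS10 ran from 24.8 to 47.9 in PBS, while its mean in the 72 h table was 9773, and without PNA2 replicate 2 it was not called (limma adjusted p = 0.0837). Same-strand genes cover 39.4% of the annotated exon bases of RPS10 and 8.40% of those of RPL36A, against 32.7% for RPL17 and 25.6% for RPS2. Reads shared between overlapping genes can be lost in counting, but whether this bears on these values was not tested.

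Messages for ribosomal proteins and a few translation factors are known for a run of pyrimidines at their start, the TOP motif, through which growth signalling sets their translation. CTTTC was searched here as a simple form of it, on the sense strand from 10 bases before to 20 after the RefSeq start (GRCh38.p14). It was found in 17 of 38 large subunit and 12 of 25 small subunit promoters that RefSeq matched, and in 3.80% of the 10206 matched promoters of tested genes. The stretches from 20 bases before to 20 after the start are given for genes that rose, RPL39 (chrX:119791611-119791650, minus strand), RPS21 (chr20:62387083-62387122, plus), RPS27 (chr1:153990742-153990781, plus), EIF3F (chr11:7987317-7987356, plus) and RPL34 (chr4:108620556-108620595, plus), and for genes that fell, EIF5B (chr2:99337369-99337408, plus) and SNHG4 (chr5:139274081-139274120, plus). Capitals mark CTTTC in the searched window.
RPL39: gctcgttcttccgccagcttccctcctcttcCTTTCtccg
RPS21: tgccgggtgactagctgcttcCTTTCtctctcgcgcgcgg
RPS27: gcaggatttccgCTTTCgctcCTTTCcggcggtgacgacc
EIF3F: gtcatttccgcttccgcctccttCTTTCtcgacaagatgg
RPL34: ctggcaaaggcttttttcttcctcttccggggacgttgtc
EIF5B: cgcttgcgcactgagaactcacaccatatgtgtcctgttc
SNHG4: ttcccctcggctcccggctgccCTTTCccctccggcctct
RPL34 rose without this motif and SNHG4 fell with it. TPT1, GAS5 and SNHG29, not shown, also rose without it. Of matched ribosomal protein genes called higher, 16 of 33 of the large and 9 of 21 of the small subunit had the motif. So did the 1 called lower in each list. Among matched translation factors the motif was in 1 of 4 called higher and 0 of 9 called lower, and among snoRNA host genes in 1 of 4 called higher and 2 of 4 called lower.

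The translation factors split. Of 44 tested, 6 were called higher and 9 lower, with a median of -0.08. Those that rose included EIF3F (0.38), EIF3L (0.40) and EIF3K (0.41) of the initiation complex eIF3, and TPT1 (0.38), the translationally controlled tumour protein. Those that fell included EIF5B, the factor that joins the ribosomal subunits (-0.66), EIF2B4 of the exchange factor eIF2B (-0.33) and EIF4G2 (-0.33). EIF5B read 2398 to 3463 in PBS and 1991, 1353, 2031 and 2182 in PNA2, without overlap. EIF4A1, the initiation helicase, was also called lower (-0.92), but at 98.4 to 187 in PBS against a 72 h mean of 2544, and 48.6% of its exon bases lie under other genes of the same strand. For EIF3L, which rose, that share was 41.1%, at 2687 to 3558 in PBS. Whether overlap bears on either gene's values was not tested.

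Host genes of small nucleolar RNAs moved in both directions, 5 higher and 5 lower of 20. GAS5 and SNHG29 rose by 0.80 and 0.73, and SNHG4, SNHG3 and SNHG12 fell by 0.83, 0.56 and 0.48. GAS5 read 1759 to 2420 in PBS and 3493, 5852, 3128 and 2896 in PNA2, with replicate 2 the highest. SNHG4 read 715 to 1113 in PBS and 626, 440, 541 and 505 in PNA2. Neither gene's groups overlapped.

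Genes that build the ribosome did not follow its proteins. Of 39 ribosome biogenesis genes none was called higher and 8 lower, led by LYAR (-0.58), BOP1 (-0.47), PPAN (-0.46) and WDR75 (-0.34). The list's median was -0.21, but -0.46 in batch A and 0.03 in batch B, and -0.06 without PNA2 replicate 2, where 6 were called lower. By library the medians were -0.26, -0.61, -0.00 and 0.09 for PNA2 replicates 1 to 4. The 33 genes that MYC is known to activate gave 1 called higher and 9 lower, with medians of -0.36 in batch A and 0.03 in batch B.

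**Figure D3:**
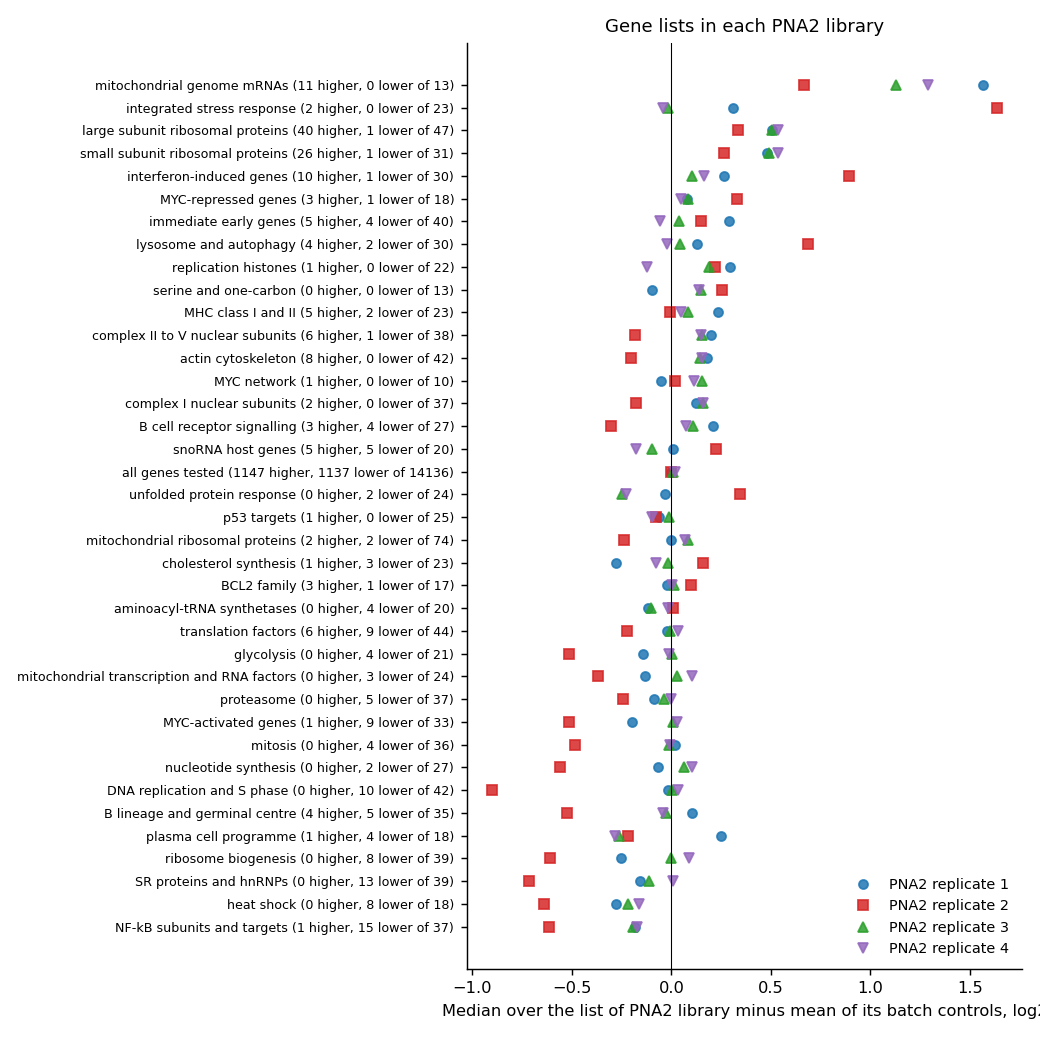
Median over each gene list of the log2 difference between 1 PNA2 library and the mean of its batch's PBS libraries (horizontal), with lists ordered by their fitted median and counts of called genes in the labels. For mitochondrial mRNAs, ribosomal proteins, NF-kB and heat shock genes all 4 libraries lie on one side of 0, while replicate 2 lies farthest from 0 in the stress response, replication and glycolysis lists.

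The largest single changes included genes outside these groups. TTN, the giant muscle protein titin, here at chr2:178525989-178830802 (minus strand), read 320, 263, 285, 355, 262 and 280 in PBS and 1579, 892, 1195 and 1522 in PNA2. It rose by 2.11 (SE 0.14, limma adjusted p = 9.68e-07), with 1.93 in batch A and 2.29 in batch B. CMTM3, a membrane protein of the chemokine-like factor family, read 147 to 198 in PBS and 323, 637, 413 and 416 in PNA2, a rise of 1.38. SH2D2A, a T cell adaptor (1.73), SIGLEC10, an inhibitory B cell lectin (1.41), and RASGEF1B, an exchange factor for RAS-family proteins (1.40), also rose. Groups without overlap and the same sign in both batches were conditions for the 12 largest increases and decreases. Within batch A alone SIGLEC10 did not pass (limma adjusted p = 0.0618). SNORD3A, the U3 small nucleolar RNA at chr17:19188016-19188714, read at most 33.6 in PBS, with 1 library at 0, and 214, 371, 287 and 182 in PNA2. It is short and not polyadenylated, has near-identical copies, and the labels name both a total RNA and an mRNA kit.

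Among the 12 largest decreases, 3 were joining segments of the kappa light chain locus: IGKJ4 (-1.74), IGKJ3 (-1.23) and IGKJ5 (-1.15). IGKJ4 read 131 to 214 in PBS and 71.8, 17.4, 71.1 and 56.4 in PNA2. Of all 46 immunoglobulin segments tested 10 were called lower and 1 higher, while the share of the library held by immunoglobulin genes, 1.28% ± 0.257 (SD, n = 6) in PBS and 1.06% ± 0.176 (SD, n = 4) in PNA2, did not pass (exact permutation test, adjusted p = 0.259). HBEGF, an EGF receptor ligand, fell by 1.46, the neuronal pentraxin gene NPTX1 by 1.30 and AMN, part of the vitamin B12 receptor of the gut, by 1.23. AMN read 2441 to 3932 in PBS and 1713, 1636, 1174 and 1053 in PNA2. The fall was smaller in batch A than in batch B for AMN (-0.72 and -1.75), NPTX1 (-0.73 and -1.87) and RHPN1 (-0.50 and -1.79), with adjusted p-values of the difference between batches (limma) of 0.00711, 0.0255 and 0.00723. RHPN1 and WNK2, a kinase of the WNK family, fell by 1.14 and 1.13, WNK2 by 0.60 without PNA2 replicate 2.

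Several of the deepest decreases took their size from PNA2 replicate 2. LTB, the cytokine lymphotoxin beta, read 87.7 to 182 in PBS and 40.0, 0, 69.9 and 72.8 in PNA2, and its fitted change of -2.55 (limma adjusted p = 0.0454) depends on the pseudocount at that 0. Without the library it was -1.03 (limma adjusted p = 0.0033). The unnamed antisense RNA ENSG00000248571 (chr4:152666368-152670107) read 128 to 180 in PBS and 73.1, 3.76, 78.3 and 69.9 in PNA2, for -1.97 with and -0.99 without it. CTXN3 changed by -1.16 with and -0.60 without, and its difference was -2.17 in batch A and -0.15 in batch B. ENSG00000261226, a sense-intronic RNA at chr16:88936779-88939651, read 138 to 246 in PBS and 72.9, 26.2, 58.9 and 68.8 in PNA2.

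Several survival and NF-kB genes fell. PIM1, a serine/threonine kinase that promotes B cell survival, is at chr6:37170203-37175426 on the plus strand. It read 2470, 2456, 2445, 2093, 2369 and 2420 in PBS and 1357, 1017, 1377 and 1380 in PNA2. It fell by 0.90 (SE 0.08, limma adjusted p = 2.27e-05). Within batches the change was -0.99 (A) and -0.81 (B). Its relative PIM2 fell by 0.33 and the ERK phosphatase DUSP2 by 0.45 (0.28 without replicate 2), while in the same list of 40 immediate early genes 5 were called higher, among them the feedback inhibitor SPRY2 (0.91) and the mRNA decay factor ZFP36 (0.26). ZFP36 lost its call within either batch alone and in the fit of PNA2 and PBS alone.

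Of 37 NF-kB subunits and targets 15 were called lower and 1 higher, with a median of -0.30. In 11 of the 37 all PNA2 libraries lay below all controls. The medians were -0.18, -0.61, -0.20 and -0.17 in PNA2 replicates 1 to 4, and without replicate 2 there were 12 called lower and 1 higher. The fit of PNA2 and PBS alone called 7 and 1. NFKBIZ, a nuclear NF-kB cofactor, read 440 to 661 in PBS and 274, 224, 357 and 327 in PNA2, a fall of 0.87. IRF4, which runs the activated B cell programme, read 8571 to 9497 in PBS and 6147, 5040, 6706 and 6727 in PNA2, a fall of 0.55 (SE 0.07, limma adjusted p = 0.000205). TNFAIP3, the feedback deubiquitinase A20, fell by 0.79, and the homing receptor CCR7 rose by 0.63.

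The promoters of NFKBIZ (chr3:101827747-101827796, plus strand) and TNFAIP3 (chr6:137867057-137867233, plus) hold matches to GGG and CC spaced by any 5 bases, the general form of an NF-kB site, shown in capitals where found on either strand, with overlapping matches merged.
NFKBIZ: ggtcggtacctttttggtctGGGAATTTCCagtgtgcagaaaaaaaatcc
TNFAIP3: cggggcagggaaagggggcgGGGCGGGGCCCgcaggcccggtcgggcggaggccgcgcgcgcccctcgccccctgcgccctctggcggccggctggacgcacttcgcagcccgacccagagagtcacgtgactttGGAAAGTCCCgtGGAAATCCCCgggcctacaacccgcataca
The form is loose: from 250 bases before to 50 after the start it occurred in 26 of 31 matched promoters of the list, in 13 of the 13 of genes called lower, and in 73.3% of all 10206.

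Of 17 cell death regulators of the BCL2 family 3 rose and 1 fell. BCL2L1, which encodes the protective BCL-XL, read 1652, 1645, 1604, 1703, 1689 and 1576 in PBS and 1118, 675, 1359 and 1318 in PNA2, a fall of 0.61 (0.39 without replicate 2). Genes on the other strand overlap 43.0% of its exon bases. BCL2L11, which encodes the death inducer BIM, read 2670 to 2943 in PBS and 3343, 3540, 3519 and 3530 in PNA2, a rise of 0.30 (SE 0.05, limma adjusted p = 0.00196). BBC3, which encodes PUMA, read 92.3 to 149 in PBS and 114, 441, 251 and 234 in PNA2, a rise of 0.93 (0.52 without replicate 2) that replicate 1 did not share. The protective BCL2L2 rose by 0.54, with overlapping groups (47.7 to 70.9 in PBS, 68.4 to 119 in PNA2). It lost its call without replicate 2, within either batch alone and in the fit of PNA2 and PBS alone. The other 13 members were not called. Of 25 p53 targets BBC3 was the 1 called.

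**Figure D4:**
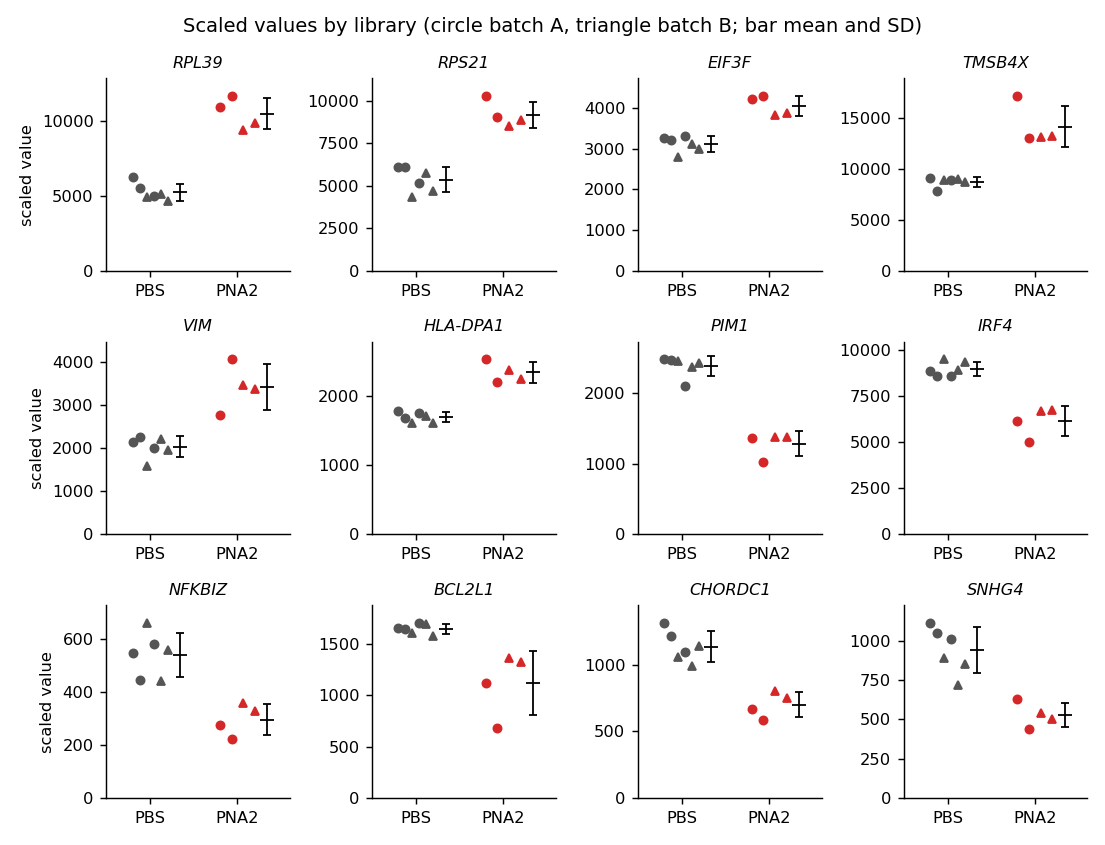
Scaled values (vertical, from 0) of 12 genes in the 6 PBS and 4 PNA2 libraries, with mean and SD. The genes were picked from the named genes, and in each of the 12 panels the 4 PNA2 libraries lie on one side of all controls, for example RPL39 at 9349 or more against at most 6221. Of all tested genes, 5.2% lay wholly above and 4.87% wholly below the controls, and other named genes overlapped, among them CD79B.

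Of 35 B lineage and germinal centre genes 4 were called higher and 5 lower, counts near the 8.11% and 8.04% of all tested genes. MME, the germinal centre marker CD10, fell by 0.79, and the transcription regulators ID3 and SPI1 rose by 0.48 and 0.49. The paired chains of the B cell receptor parted: CD79A read 8679 to 11316 in PBS and 13720, 12543, 13884 and 13516 in PNA2, a rise of 0.47, and CD79B fell by 0.43 with overlapping groups. Of 27 receptor signalling genes 3 were called higher and 4 lower, with a median of 0.02, and 2 and 2 in the fit of PNA2 and PBS alone. SYK, a kinase that carries the receptor's signal, fell by 0.36, and the inhibitory phosphatase INPP5D rose by 0.30. MALT1 was also called higher, at 2392 to 2799 in PBS and 2944 to 3112 in PNA2. It lost its call within either batch alone and in the fit of PNA2 and PBS alone. Of 18 plasma cell genes 4 were called lower and 1 higher. TNFRSF13B, the receptor TACI, read 1315 to 1626 in PBS and 1028, 829, 950 and 948 in PNA2, a fall of 0.62.

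Genes of antigen presentation and of the actin cytoskeleton were mostly raised where called. Of 23 MHC genes 5 were called higher, among them HLA-DPA1 (0.47), HLA-DMA (0.39) and B2M (0.39), and 2 lower, the transactivator NLRC5 (-0.35) and RFXAP (-0.37). The fit of PNA2 and PBS alone called 3 higher and 0 lower, and RFXAP also lost its call within either batch alone and without PNA2 replicate 2. Of 42 actin cytoskeleton genes 8 were called higher and none lower, and 17 and none without PNA2 replicate 2. TMSB4X, which binds actin monomers, read 7831 to 9139 in PBS and 17173, 13075, 13103 and 13239 in PNA2, a rise of 0.68 (SE 0.09, limma adjusted p = 0.000223). VIM, which encodes the filament protein vimentin, rose by 0.75, the tropomyosin TPM4 by 0.47 and TMSB10 by 0.40.

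In the full fit, genes of the heat shock, splicing factor and proteasome lists were lowered where called. The lysosome and autophagy list, in contrast, gave 4 called higher and 2 lower of 30. Of 18 heat shock genes 8 were called lower and none higher, with a median of -0.27 (-0.20 without PNA2 replicate 2, with 8 and none again). CHORDC1, a co-chaperone of HSP90, read 990 to 1317 in PBS and 667, 590, 806 and 748 in PNA2, a fall of 0.70, and HSPH1 fell by 0.51. The CHORDC1 promoter (chr11:90223067-90223129, minus strand) holds the heat shock element, searched as GAA, TTC and GAA each spaced by any 2 bases and given here in capitals with overlapping matches on either strand merged.
CHORDC1: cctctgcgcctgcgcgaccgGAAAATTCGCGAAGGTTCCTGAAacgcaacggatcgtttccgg
It occurred in 3 of 16 matched promoters of the list and in 0.314% of all 10206.

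Of 39 SR proteins and hnRNPs, which bind pre-mRNA and guide splicing, 13 were called lower and none higher, with a median of -0.24 (-0.12, 12 and none without PNA2 replicate 2). The fit of PNA2 and PBS alone called 3 lower. TRA2A fell by 0.43, SRSF10 by 0.49 (0.30 without replicate 2), SRSF11 by 0.33 and SRSF4 by 0.29. Of 37 proteasome genes 5 were called lower and none higher, with PSMD12, PSMD2 and PSMD11 of the regulatory particle at -0.41, -0.38 and -0.35. Without PNA2 replicate 2 the proteasome list gave 6 higher and 5 lower. Of 20 tRNA synthetases VARS1, FARSA, HARS1 and RARS1 fell, by 0.55, 0.41, 0.33 and 0.33.

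Lists of growth and stress genes took different values in PNA2 replicate 2. The 23 integrated stress response genes had library medians of 0.31, 1.64, -0.02 and -0.04 in PNA2 replicates 1 to 4, and the fitted median of 0.58 became 0.07 without replicate 2. Of these genes PCK2 and DDIT4 were called higher (0.93 and 0.59, and 0.45 and 0.34 without replicate 2, where DDIT4 lost its call), and PCK2 read 575 in that library against 154, 242 and 241 in the other PNA2 libraries. The 42 DNA replication genes had medians of -0.02, -0.90, 0.00 and 0.03, with 10 called lower and none higher, and 9 lower and 3 higher without replicate 2. UHRF1, which directs DNA methylation behind the fork, fell by 0.58 and by 0.42 without that library, and cyclin E1 (CCNE1) by 0.63 and 0.45. The 24 unfolded protein response genes gave 2 called lower, and 10 without it. Interferon-induced genes, 10 higher and 1 lower of 30, had library medians of 0.26, 0.89, 0.10 and 0.16, a fitted median of 0.35 (0.27 without replicate 2), and gave 6 higher and 3 lower without it. TRIM22 and IFIT5 rose by 0.71 and 0.99, and IFIH1, an RNA sensor, fell by 0.53. IFITM2 rose by 1.54, but its reads may be shared with its near-copy IFITM3.

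Genes called within 1 batch were then read in the libraries of the other, which share no control. Of 808 genes called higher within batch B 652 (80.7%) were also higher in batch A by group means, against 59.9% of all tested genes with the same sign in both batches, and of 835 called lower 641 (76.8%) were lower. The medians there were 0.28 and -0.24. Of the genes called within batch A, 803 higher and 1044 lower, 74.3% and 71.8% kept the sign in batch B, with medians of 0.23 and -0.12. The siRNA libraries are all in batch A and were part of the fit there. The calls of the batches therefore rest on unlike numbers of libraries. Called in the same direction in both batches were 200 higher and 185 lower.

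The change itself differed between batches in 353 genes (2.5% of those tested) by the interaction term in limma, and in 281 of these the sign was opposite. This count was unstable: it was 2 in the fit of PNA2 and PBS alone, 4256 without PNA2 replicate 1 and 22 without PNA2 replicate 4. SLC6A6, the taurine transporter, read 647 and 575 in the batch A PNA2 libraries against 1455, 1486 and 1618 in their controls, and 1242 and 1231 in batch B against 1310, 1309 and 1275. Its changes were -1.31 and -0.07 (difference 1.24, SE 0.13, adjusted p = 0.000409, and 0.0175 in the fit of PNA2 and PBS alone). NFKBIE, an inhibitor of NF-kB, showed -0.91 and 0.07, and REC8, a meiotic cohesin, -0.96 and 0.15. XBP1, a secretory cell factor, showed 0.24 and -0.55, YPEL5 0.84 and -0.05, and CCDC102A -0.76 and 0.85. Differences between batches cannot be told apart from effects of the authors' batch adjustment.

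**Figure D5:**
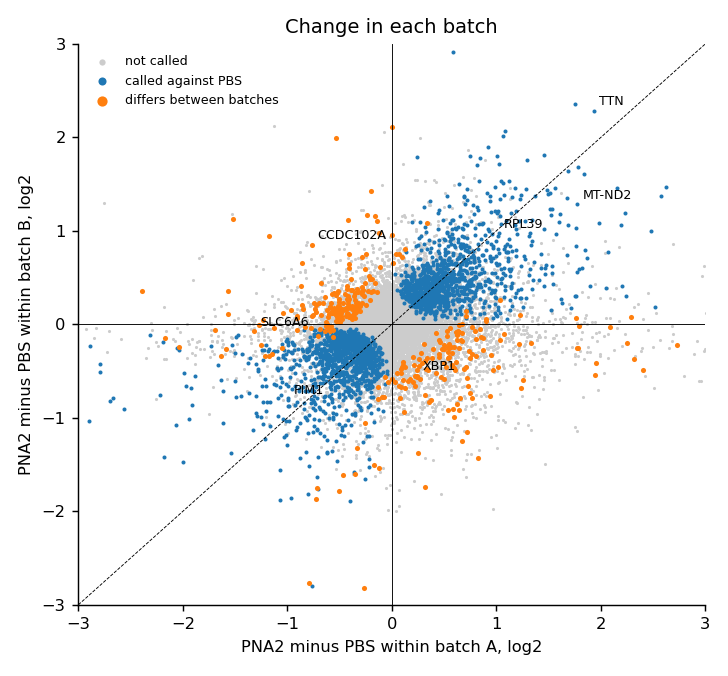
Change within batch A (horizontal) against change within batch B (vertical), log2, for the tested genes; 45 genes beyond 3 on either axis are not drawn. RPL39, PIM1, MT-ND2 and TTN lie near the diagonal, and SLC6A6 lies near the horizontal axis.

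Medians varied little with gene length and more with level, and the share of genes called varied with length, GC content and level. With the nuclear protein-coding genes cut into 5 equal bins by exon length, the bins' medians ran from -0.02 to 0.04. The share called lower ran from 5.59% in the shortest bin to 11.3% in the middle bin. In the bin with the highest GC content, 15.4% were called lower, against 4.74% in the lowest. By mean level in PBS the median went from 0.14 in the lowest bin to -0.08 in the highest, and in PNA2 replicate 2 from 0.44 to -0.27. In the highest bin 15.1% were called lower, against 3.14% in the lowest. In replicates 3 and 4 the median of each of the 5 bins was between -0.02 and 0.05.

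In the separate 72 h libraries, 9 of the 12 largest increases and 7 of the 12 largest decreases at 48 h were listed, and each of these 16 had its group means in the same order at 72 h. The groups did not overlap in 5 and 4 of them. TTN had 72 h means of 152 in PBS and 324 in PNA2, and AMN of 1551 and 784. PIM1, in contrast, had 3164 and 3240, and BCL2L1 1160 and 1336. Of the 94 named genes called lower at 48 h, 85 were listed and 60 had lower PNA2 means at 72 h, 22 of them without overlap, while 6 were higher without overlap. Of the 79 called higher, 72 were listed and 63 had higher means, 34 of them without overlap, and 0 were lower without overlap.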

How the data were processed

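RNA from U2932 cells was sequenced on an Illumina NextSeq 500 after a TruSeq stranded preparation, per the labels' protocols. The submitters' processing notes name Trimmomatic, HISAT2 2.2.1, SAMtools 1.7, HTSeq 0.11.0, DESeq2 and build GRCh38; strand setting and batch method are not given in the sources used here. The deposited 48 h values are treated as a score: 21877 of 61541 genes hold values that are not whole and 5099 hold values below 0, so they are not raw counts, and no count model was used. The deposited 72 h values are a normalized signal for 19836 genes, set beside the 48 h values without a test. Batches were read from tied values: 25.3 to 40.6% of values over 6826 low genes were tied within a batch and 0 between batches.

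Values below 0 were set to 0, libraries were scaled by a trimmed mean of M values computed here (30% of M and 5% of A trimmed), a pseudocount of 1 was added and log2 values were fitted in limma 3.58.1 (R 4.3.3; trend, group plus batch, all 14 libraries at 48 h, Benjamini-Hochberg over 14136 genes). A gene was called at an adjusted p under 0.05. Shares of RNA classes were compared by exact permutation tests (scipy 1.17.1). On data simulated for this comparison (14136 genes), the fit recovered 100 of 100 genes changed by a log2 of 1 and 89 of 100 changed by 0.5, and called 12 of 13936 unchanged genes. The simulated counts had the same dispersion for every gene, and only genes with a mean of at least 100 were changed. They held no outlying library, no change that differed between batches and no values below 0, so these rates may not hold for the real libraries. Named genes are MYC, the 12 largest increases and decreases among called genes (mean of at least 100, groups without overlap, same sign in both batches), up to 4 called members per direction of each list by adjusted p, and the 6 clearest batch differences. Members and lists were chosen with earlier results of these data known. Alternatives covered scaling, filter, pseudocount, batch term, samples in the fit and left-out libraries. Promoters are from RefSeq (GRCh38.p14), matched by symbol.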

Additional observations from a re-analysis of the deposited data

Results flagged for a closer look

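In 7 of 66 groups of samples checked, 1 sample lay far from the others of its group; chance alone gives about 1 in 20 such groups. PNA2 replicate 2 was that sample for ENSG00000248571, at a scaled value of 3.76, for IGKJ3, at 39.3, and for the share of mitochondrial rRNAs, at 0.779% of the library total. PBS replicate 6 was that sample for SNORD3A, at 33.6, and for the share of small noncoding RNAs, at 0.0233%. PBS replicate 1 stood apart for CTXN3, at 368, and PBS replicate 3 for IGKJ5, at 271.

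Of the 353 genes whose change differed between batches by the interaction term in limma, 13 are among the named genes. The difference (batch B minus batch A, log2) was 1.24 for SLC6A6, 1.11 for REC8, 1.61 for CCDC102A, 0.98 for NFKBIE, 0.83 for ICAM1, 2.03 for CTXN3 and 0.57 for PFKM. It was -0.79 for XBP1, -0.89 for YPEL5, -1.03 for AMN, -1.28 for RHPN1, -0.71 for GADD45A and -1.14 for NPTX1. Adjusted p-values (limma) were 0.000409 for SLC6A6 and 0.00711 to 0.0444 for the other 12. In the fit of PNA2 and PBS libraries alone SLC6A6 passed, at 0.0175, and the other 12 did not, at 0.0822 to 0.171.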

How the results depend on the processing

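Counts of called genes stayed within 1.5 times of 1147 higher and 1137 lower under median of ratios scaling, quantile normalization, both other filters, a pseudocount of 5, no batch term, either batch alone, genes with values below 0 left out, batches aligned on their controls, and each library left out (816 to 1494 higher, 839 to 1538 lower). Such totals can hide turnover. Of the main fit's calls, 475 higher and 568 lower recurred within batch A, and 530 and 508 within batch B. The counts moved to 2014 and 167 without rescaling and to 513 and 497 with PNA2 and PBS libraries alone. With the replicate block (numbers 1 to 4, no batch term) they were 57 and 26; same-numbered libraries had deviations correlated at 0.03, -0.35, -0.31 and 0.09, so the numbers are not taken to pair samples. The 353 batch differences became 2 with PNA2 and PBS libraries alone and 22 to 4256 with 1 library left out. Of 178 named genes 29 kept direction and call under every alternative. When 1 library was left out, 8 to 25 lost their call. Without rescaling 66 lost it, and with PNA2 and PBS libraries alone 52. Within batches A and B 61 and 53 lost it, and with the replicate block 141. Only 1 reversed: YPEL5, -0.0500 within batch B. The pseudogene share, 0.0484 points higher, had an adjusted p of 0.06 with labels permuted within batches, and 0.0285 to 0.0605 points with 1 library left out. Differences that did not pass were 0.00357 and -0.00689 points for small noncoding RNAs within batches A and B (-0.00371 to 0.000354 with 1 library left out), -0.000464 to 0.000585 for histones and -0.0246 to 0.062 for long noncoding RNAs. Causes were not tested. Within 1 batch the exact share test cannot pass: 2 PNA2 against 3 PBS libraries give at best p = 0.1.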
